A study of Mus musculus with 6 samples.

Results

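Steroidogenic nuclei, chosen for RNA of the steroid-producing cells of the ovary, were examined in single-nucleus RNA libraries of gonadal fat from aged mice. A nucleus was taken as a member when the unique molecular identifier counts (UMIs, each standing for a captured RNA molecule) of Cyp11a1, Lhcgr, Star and Inha summed to at least 4, with at least 1 UMI of Lhcgr. In addition, Ptprc, Skap1, Ptprb, Upk3b, Plin1 and Ovgp1, which mark immune, endothelial, mesothelial, adipose and oviduct cells, had to sum to at most 2. The rule was applied to nuclei that passed the quality limits of more than 500 genes, more than 1000 UMIs and a mitochondrial share below 15%. In all, 337 of the 9504 filtered nuclei of visceral adipose tissue (VAT) met the rule, out of 27074 filtered nuclei of the whole series. All 337 were in VAT replicate 2.

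The study took white fat of female C57BL/6J mice without a stated genetic change or treatment. Its 6 libraries here form 3 groups of 2, namely subcutaneous adipose tissue (SAT, inguinal) at 2 months, SAT at 24 months and VAT (gonadal) at 24 months, while VAT at 2 months was not analysed here. The labels give 24 months for the older mice and the design text gives 26 months, and which libraries share a mouse is not stated. The gonadal fat pad of a female mouse lies against the ovary and oviduct, and whether these were trimmed away was not stated.

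Ovarian steroid production starts when luteinising hormone binds its receptor Lhcgr and raises cyclic AMP inside theca, interstitial, luteal or mature granulosa cells. Cholesterol is then carried into mitochondria by Star and cut to pregnenolone by Cyp11a1, which takes electrons from Fdxr through Fdx1. Hsd3b1 turns pregnenolone into progesterone, Cyp17a1 opens the way to androgens in theca and interstitial cells, and Cyp19a1 makes oestrogen in granulosa cells. Inha is the alpha chain of inhibin, the gonadal hormone that restrains follicle-stimulating hormone.

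VAT replicate 2 stood apart from the other libraries in its mitochondrial share and its members, but not in its number of nuclei or its depth. Filtered nuclei numbered 2490 to 5776 per library, with median depths of 1380 to 1878 UMIs. The median mitochondrial share was 5.07% in VAT replicate 2 and 0.776% to 3.49% in the other 5 libraries. Members made up 6.65% of the 5070 filtered nuclei of VAT replicate 2 (exact binomial 95% interval 5.98% to 7.37%, counting error only, as for every interval here). In VAT replicate 1, 0 of 4434 nuclei were members, which allows a share of up to 0.0677%. The same rule found 0 members among the 4595 and 5776 nuclei of SAT at 2 months and among the 2490 and 4709 nuclei of SAT at 24 months. Among the filtered nuclei of the other libraries 1 carried a member's barcode, in SAT at 2 months replicate 2.

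Because 1 library holds every member, no test across libraries was possible, and no value below carries a test. Members were chosen by the measured UMIs of the rule genes, whose levels are therefore a description only.

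The 4 rule genes were at a low level in 5 libraries and far higher in VAT replicate 2 when all filtered nuclei were summed. Cyp11a1 was at 1.52 and 1.08 CPM (UMIs of the gene scaled to a common total, counts per 1e6) in SAT at 2 months, at 3.04 and 1.48 CPM in SAT at 24 months, at 2.71 CPM in VAT replicate 1 and at 1163 CPM in VAT replicate 2. Lhcgr was at 0.784 to 3.15 CPM in the first 5 libraries and at 378 CPM in VAT replicate 2. In a whole-library sum, fewer nuclei of a type and less RNA per nucleus cannot be told apart. Within VAT replicate 2 the members held 82.8% of all Cyp11a1 UMIs and 80.1% of all Lhcgr UMIs, but 52.8% for Inha and 37.1% for Star, which other nuclei carried too.

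Several genes of the pathway that the rule did not use were also highest in this library. Hsd3b1 was at 0 to 0.203 CPM in 5 libraries and at 230.4 CPM in VAT replicate 2. Cyp17a1 was at 0.0933 to 0.380 CPM and at 89.9 CPM. Nr5a1, the nuclear receptor that drives steroid enzyme genes in gonad and adrenal, was at 0 to 0.950 CPM and at 72.7 CPM. Sfrp4, a secreted Wnt antagonist known from luteal cells, was at 3.80 to 37.0 CPM and at 241 CPM. By contrast, Prlr, the prolactin receptor, was lower in VAT replicate 2 (63.7 CPM) than in every SAT library (171 to 378 CPM), so that its whole-library level did not set this library apart. Tspo, a mitochondrial membrane protein linked to cholesterol transport, was lowest in VAT replicate 2 (40.4 CPM, against 57.0 to 177 CPM elsewhere), as were the electron donors Por (156 against 232 to 649 CPM) and Cyb5a (95.3 against 125 to 286 CPM).

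**Figure D1:**
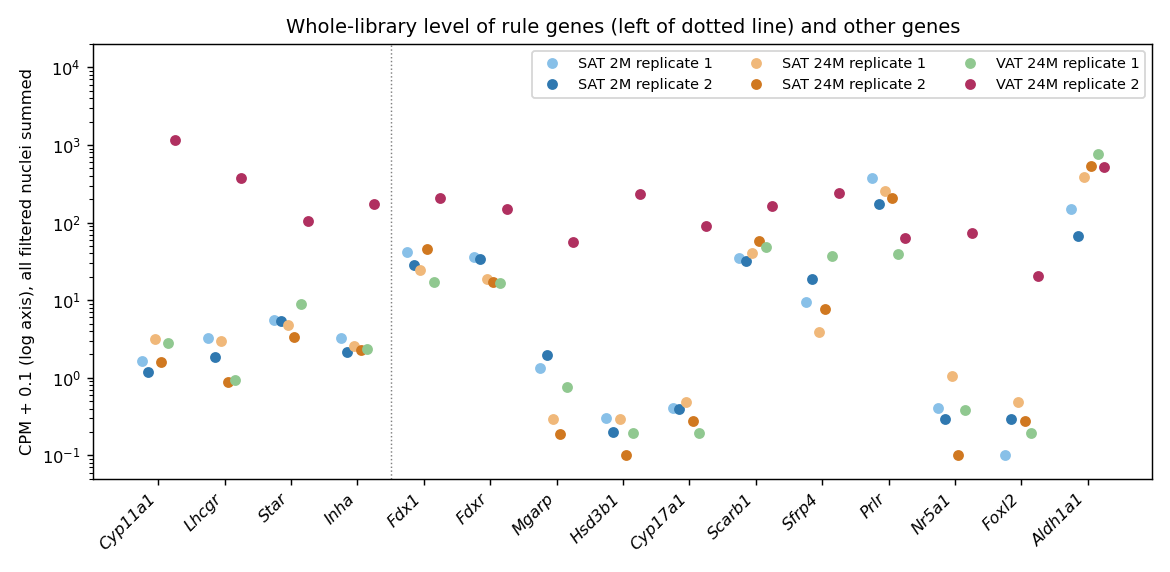
Level of the 4 rule genes (left of the dotted line) and of 11 other genes in the 6 libraries, as CPM + 0.1 on a log axis over all filtered nuclei, with 1 point per library. VAT replicate 2 lies above the other 5 libraries for all genes shown except Prlr, which is higher in SAT, and Aldh1a1, which is at 760 CPM in VAT replicate 1 and 513 CPM in VAT replicate 2.

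Members were spread widely in the UMIs that chose them. The sum over the rule genes ran from 4 to 189 UMIs with a median of 36, and 297 of the 337 nuclei held at least 10. Of all filtered nuclei of VAT replicate 2, 3200 held no UMI of these genes, 1023 held 1, 295 held 2, 108 held 3 and 53 held 4. In VAT replicate 1, 92 of 4434 nuclei held 1. RNA of these genes was thus also found outside the members. Among the 430 immune nuclei of VAT replicate 2 (Ptprc and Skap1 summing to at least 4, and the rule genes with the other cells' markers to at most 2), 8.60% had a Cyp11a1 UMI (6.13% to 11.7%) and 6.05% had a Hsd3b1 UMI (3.99% to 8.73%). In the immune nuclei of the 4 SAT libraries, 0% to 0.474% had a Cyp11a1 UMI, and 0 of 29 in VAT replicate 1. These immune nuclei of VAT replicate 2 serve as the background for shares of nuclei below, at a median depth of 1413 UMIs against 1885 for members. The limit of 2 UMIs holds down their share with a rule gene. Without a limit on the rule genes there were 447 immune nuclei, 3 of them with 4 or more UMIs of these genes, and 10.3% had a Cyp11a1 UMI, 6.49% a Hsd3b1 UMI and 1.34% a Cyp17a1 UMI.

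The edge of the rule was mixed. The 14 members at exactly 4 UMIs had Cyp11a1 at 349 CPM and Hsd3b1 at 317 CPM, against 13138 and 2279 CPM over all members. Their Wt1, a transcription factor of mesothelium, ovarian surface and stroma, was at 476 CPM, against 123 CPM over all members. Just outside, 108 nuclei with 3 UMIs had Cyp11a1 at 271 CPM, Hsd3b1 at 46.0 CPM and Wt1 at 878 CPM. A further 78 nuclei had 4 or more UMIs but none of Lhcgr, with Cyp11a1 at 1302 CPM, and 29 had Lhcgr but more than 2 UMIs of the other cells' markers, with Cyp11a1 at 9213 CPM.

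**Figure D2:**
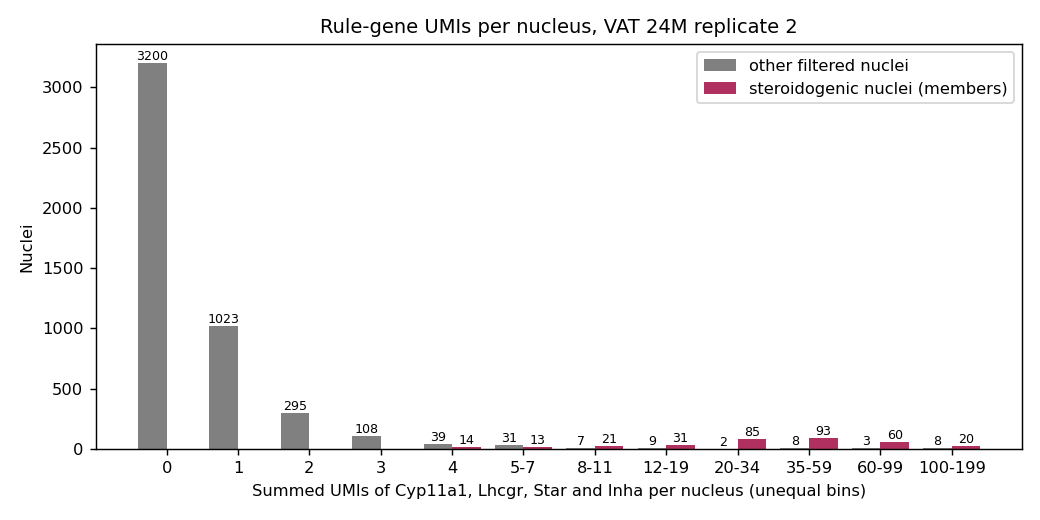
Number of filtered nuclei of VAT replicate 2 by the summed UMIs of Cyp11a1, Lhcgr, Star and Inha, in bins of unequal width, with members in red and all other nuclei in grey and the number of nuclei above each bar. Other nuclei fall from 3200 at 0 UMIs to 108 at 3. The bin of 35 to 59 UMIs holds the most members, but it is wider than the bins below it.

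Members were set against the 4733 other nuclei of the same library, with UMIs summed over each set and the fold taken as log2 of CPM + 5. Of 21688 genes with at least 10 UMIs, 230 (1.06%) were at least 4-fold higher in members and 413 (1.9%) at least 4-fold lower, and the median over all these genes was -0.21. The number of lower genes depended on the rule, with 260 when Lhcgr was not required and 865 at a mitochondrial limit of 5%. The other nuclei include those just outside the rule and the 328 oviduct secretory nuclei (Ovgp1 at least 4 UMIs), so these folds describe members against that mixture. Of 98 genes past 4-fold that were recomputed under the other settings, 49 fell short of it under at least 1.

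Partners of Cyp11a1 in side-chain cleavage were split, where 1.06% of all genes tested were at least 4-fold higher. Of 8 genes for cholesterol import and cleavage that the rule did not use, Fdx1, Fdxr and Mgarp were over 4-fold higher, and the other 5 (Tspo, Acbd3, Stard3, Stard4 and Stard5) lay between -0.59 and 1.05 on the log2 scale, with a median of 0.47 over the 8. Fdx1 (ENSMUSG00000032051, GRCm39 chr9:51852253-51875291) was at 1883 CPM in members and 72.2 CPM in other nuclei, a ratio of 26.1 (23.8 to 28.6). It was found in 70.3% of members and 5.81% of immune nuclei. Fdxr, which feeds electrons to Fdx1, was at 775 and 102 CPM, a ratio of 7.61 (6.85 to 8.44). Mgarp, a mitochondrial protein of steroid-producing cells, was at 559 and 15.9 CPM, and members held 73.6% of its UMIs in the library.

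Among enzymes that act after pregnenolone, 5 of the 16 with enough UMIs were over 4-fold higher and 1 was over 4-fold lower. Over all genes the shares were 1.06% and 1.9%. Hsd3b1 (ENSMUSG00000027871, GRCm39 chr3:98757367-98767116) was at 2279 CPM in members and 68.5 CPM in other nuclei, a ratio of 33.3 (30.4 to 36.5), with a UMI in 86.6% of members and 6.05% of immune nuclei. Its relatives Hsd3b2 and Hsd3b6 had 1 UMI each in members, and such near-identical copies may share reads. Cyp17a1 (ENSMUSG00000003555, GRCm39 chr19:46655604-46661611) was at 737 and 38.7 CPM, a ratio of 19.0 (16.7 to 21.8), but in only 29.7% of members (24.8% to 34.9%) against 0.930% of immune nuclei. Hsd17b1, which makes oestradiol, was at 46.8 and 3.91 CPM, and Akr1c14 was at 76.3 and 13.6 CPM.

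RNA of Cyp19a1 was seldom seen. Cyp19a1, the aromatase, had a UMI in 12 of 337 members (3.56%, 1.85% to 6.14%), against 1.63% of immune nuclei, and its log2 fold was 1.73. Hsd17b3, which makes testosterone in the testis, had 0 UMIs in members, which allows up to 0.890% of nuclei with a UMI. Hsd11b1, which regenerates active glucocorticoid, was at 8.03 CPM in members and 48.9 CPM in other nuclei, a log2 fold of -2.05. It was the 1 enzyme over 4-fold lower, but fell short of 4-fold under 8 of the other settings, and 0 to 2 enzymes were over 4-fold lower across them.

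Promoter windows of these genes were searched for letters that factors of this tissue are known to bind, since the genes were high together. The windows run from 250 bases before to 50 bases after a start site (RefSeq, GRCm38.p6). AAGGTCA is the sequence recognised by Nr5a1, and GATAA holds the core of GATA factor sites. Of 13 genes looked up, 8 had 11 windows, and Star, Cyp17a1, Scarb1, Sfrp4 and Nr5a1 had no entry. AAGGTCA was in 0 of the 11 windows on either strand, against 4.72% of all 32851 windows, which says only that these letters are not in these windows. GATAA was in 4 windows, those of Hsd3b1, Fdx1, Mgarp and Fdxr, against 25.4% of all windows. A match is a description, not a binding site. The windows of the cleavage enzyme, of its electron donor and of the enzyme that follows are shown in their gene's direction. GATAA, or TTATC where it lies on the other strand, is in capitals. The Cyp11a1 windows lie at chr9:57997774-57998073, plus strand, and chr9:58014702-58015001, plus strand, the Fdx1 window at chr9:51963553-51963852, minus strand, and the Hsd3b1 window at chr3:98859745-98860044, minus strand.
Cyp11a1, first start: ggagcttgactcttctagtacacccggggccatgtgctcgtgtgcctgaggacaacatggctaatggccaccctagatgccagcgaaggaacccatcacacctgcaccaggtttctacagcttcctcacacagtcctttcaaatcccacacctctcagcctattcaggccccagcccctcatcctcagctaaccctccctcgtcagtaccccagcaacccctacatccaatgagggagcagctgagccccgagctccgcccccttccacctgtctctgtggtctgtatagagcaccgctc
Cyp11a1, second start: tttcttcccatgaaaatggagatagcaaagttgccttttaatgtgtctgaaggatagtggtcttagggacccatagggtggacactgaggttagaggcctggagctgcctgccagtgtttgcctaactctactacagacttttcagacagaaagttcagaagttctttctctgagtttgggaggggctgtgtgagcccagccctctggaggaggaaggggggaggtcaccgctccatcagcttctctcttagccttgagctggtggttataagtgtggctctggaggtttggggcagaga
Fdx1: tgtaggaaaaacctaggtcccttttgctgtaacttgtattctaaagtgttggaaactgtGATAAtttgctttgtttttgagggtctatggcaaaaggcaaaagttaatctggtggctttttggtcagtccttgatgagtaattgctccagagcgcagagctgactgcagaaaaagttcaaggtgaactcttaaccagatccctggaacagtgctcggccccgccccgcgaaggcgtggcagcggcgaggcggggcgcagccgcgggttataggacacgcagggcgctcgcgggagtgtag
Hsd3b1: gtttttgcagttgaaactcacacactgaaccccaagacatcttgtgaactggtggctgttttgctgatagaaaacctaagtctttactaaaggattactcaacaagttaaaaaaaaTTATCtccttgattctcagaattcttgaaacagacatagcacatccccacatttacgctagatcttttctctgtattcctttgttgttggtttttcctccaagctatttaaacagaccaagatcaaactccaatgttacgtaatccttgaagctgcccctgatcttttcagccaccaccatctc
Neither Cyp11a1 window holds a capital. Only GATAA was searched, so GATA followed by another letter, as in the second Cyp11a1 window, was not marked. In Fdx1 the match begins 191 bases before the start site, and in Hsd3b1 it begins 134 bases before it, on the opposite strand.

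RNA of genes for cholesterol uptake and storage was higher in members for a few genes only. Scarb1, the receptor that takes cholesterol esters from high-density lipoprotein, was at 935 CPM in members and 100.3 CPM in other nuclei, a ratio of 9.33 (8.45 to 10.3). Gramd1b, which moves cholesterol from the plasma membrane to the endoplasmic reticulum, was at 1194 and 223 CPM. Scarb1 and Gramd1b were the only 2 of 14 uptake and storage genes past 4-fold, against 1.06% of all genes higher and 1.9% lower. Soat1, which stores cholesterol as ester, was at 1214 and 349 CPM, a log2 fold of 1.78. The median of the list was 0.12, and it ran from -0.26 to 0.18 over the settings tried.

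RNA of genes for cholesterol synthesis was more even. All 19 genes with enough UMIs had a positive log2 fold (0.38 to 3.17), with a median of 1.78, and 6 of them passed 4-fold. Over all genes 1.06% were at least 4-fold higher, and 1 to 10 genes of this list passed across the settings tried. Sc5d, a late step of the pathway, was at 280 CPM in members and 26.5 CPM in other nuclei, a ratio of 10.5 (8.73 to 12.7). Hmgcs1, at the head of the pathway, was at 194 and 44.7 CPM, Cyp51 at 120 and 21.9 CPM, and Msmo1 at 218 and 43.8 CPM. Hmgcs1 lay at the 4-fold limit and fell short of it under 6 of the other settings.

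Of 16 hormone receptors 3 were over 4-fold higher in members, 3 were over 4-fold lower (Ghr, Pgr and Ptger2) and 10 lay between, with a median of -0.25 against -0.21 over all genes. Over all genes, 1.06% were at least 4-fold higher and 1.9% at least 4-fold lower. The higher receptors were Lhcgr, which the rule used, Prlr and Ptgfr. Prlr, through which prolactin sustains luteal cells, was at 541 CPM in members and 26.0 CPM in other nuclei, a ratio of 20.8 (17.7 to 24.4). Ptgfr, the receptor for the prostaglandin that ends luteal life, was at 68.2 and 3.38 CPM, with a UMI in 8.01% of members and in 0 of 430 immune nuclei. Ghr, the growth hormone receptor, was lower, at 120 CPM against 1149 CPM, and the progesterone receptor Pgr had 2 UMIs in members (2.68 CPM) against 45.7 CPM. Esr1, the main oestrogen receptor of the uterus and oviduct, lay just short of 4-fold lower at -1.98. Fshr, the receptor for follicle-stimulating hormone on granulosa cells, had a UMI in 19 members (5.64%, 3.43% to 8.66%) against 2.56% of immune nuclei.

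Of 21 genes of cyclic AMP signalling, 2 were over 4-fold higher and 0 lower, against 1.06% and 1.9% of all genes. Prkar2b, a regulatory subunit of protein kinase A, was at 1030 CPM in members and 96.9 CPM in other nuclei, a log2 fold of 3.35. Its level over all nuclei of VAT replicate 1, which held no members, was 1051 CPM, and with both VAT libraries pooled the log2 fold was 0.77. Pde10a, which breaks down cyclic nucleotides, was at 474 and 106 CPM. The median of the list was 0.17, against -0.21 over all genes.

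Transcription factors of the gonad were split, with 4 of 18 over 4-fold higher and 4 lower, against 1.06% and 1.9% of all genes. Nr5a1 was at 361 CPM in members and 49.9 CPM in other nuclei, a ratio of 7.24 (6.21 to 8.42), and its relative Nr5a2 was at 138 and 22.4 CPM. Foxl2, which keeps ovarian identity in granulosa cells, was at 126 and 11.7 CPM, a ratio of 10.7 (8.05 to 14.2). Nr4a1, an early response gene of hormone signalling, was the fourth that was over 4-fold higher. Nr4a1 fell short of 4-fold under 7 of the other settings, and Nr5a2 under 2. Wt1, Lhx9, Emx2 and Sox9 were over 4-fold lower in members, but each fell short of 4-fold under 5 to 8 of the other settings, and 0 to 5 genes of the list were over 4-fold lower across them. Gata4 was at 451 and 362 CPM, a log2 fold of 0.31, and was found in 47.2% of members, 31.3% of other nuclei and 6.51% of immune nuclei.

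Of 22 inhibin, activin and paracrine genes with enough UMIs, 3 were over 4-fold higher and 1 lower, against 1.06% and 1.9% of all genes. The higher ones were the rule gene Inha and 2 others. Inhba, the beta A chain of inhibin and activin, was at 88.3 CPM in members and 8.99 CPM in other nuclei, in 6.23% of members and 0 of 430 immune nuclei. Kitl, the ligand through which somatic cells act on oocytes and theca, was at 494 and 94.8 CPM. Igfbp5, which binds insulin-like growth factors, was lower, at 103 against 470.4 CPM.

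**Figure D3:**
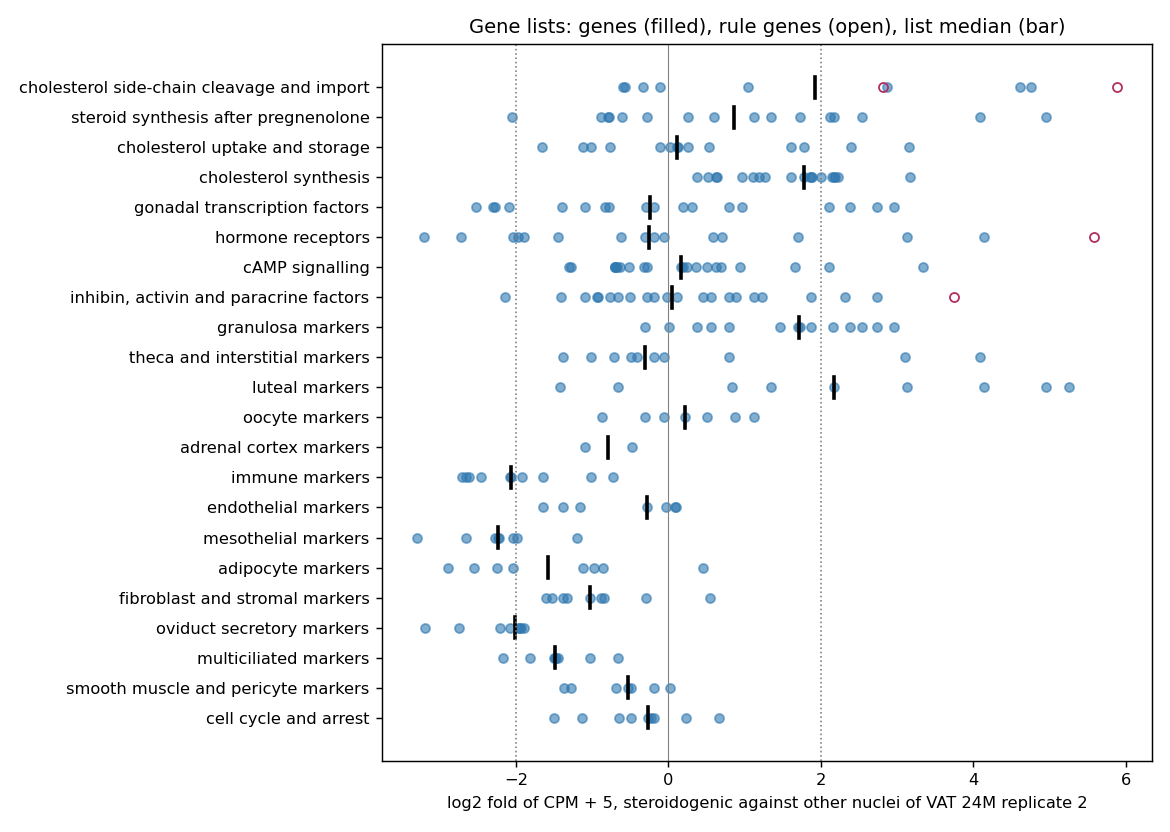
Log2 fold of CPM + 5 in members against the other nuclei of VAT replicate 2 for each gene of 22 lists with at least 10 UMIs, with filled points for genes, open red points for rule genes and a black bar at each list's median. The dotted lines mark 4-fold. Medians run from 2.17 for luteal markers to -2.23 for mesothelial markers.

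Marker lists of ovarian cell types were set beside each other as counts. Over all genes tested, 1.06% were at least 4-fold higher and 1.9% at least 4-fold lower. Of the luteal list, 5 of 9 genes passed 4-fold, namely Sfrp4, Hsd3b1, Prlr, Ptgfr and Hsd17b7, while Parm1 (-1.43) and Edn2 (1 UMI in members) were not higher, and the list's median was 2.17. Of the granulosa list, 5 of 14 passed (Foxl2, Inhba, Hsd17b1, Nr5a2 and Gja1), with a median of 1.71. Across the settings tried, 2 to 7 granulosa and 3 to 6 luteal markers passed. Of the theca and interstitial list, 2 of 10 passed, namely Cyp17a1 and Aldh1a1, with a median of -0.30. Insl3, a hormone made by theca cells, had 0 UMIs in members and in all other nuclei of the library. The adrenal enzymes Cyp11b1 and Cyp11b2 and the adrenal marker Akr1b7 had 0 UMIs in members, and Cyp21a1 had 1. Of 13 oocyte genes 7 had enough UMIs and 0 of these passed 4-fold in either direction, and Zp1, Zp2, Bmp15, Nlrp5, Oosp1 and Sohlh1 were at 0. The RNA of the members thus held markers of several ovarian steroid-producing cell types, and the name of a single type is not given here.

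Markers of other cells were summed in members and in the nuclei that those markers chose. The summed level of 10 immune markers was 347 CPM in members and 8346 CPM in immune nuclei. That of 8 mesothelial markers was 290.3 CPM in members and 4899 CPM in mesothelial nuclei, and that of 8 oviduct secretory markers was 205 CPM and 6965 CPM in oviduct secretory nuclei. For 8 adipocyte markers it was 202 and 13881 CPM in adipocyte nuclei, for 8 endothelial markers 173 and 5612 CPM in endothelial nuclei, and for 9 fibroblast and stromal markers 466 and 4054 CPM in stromal nuclei. Of these lists Egfl7 was at 0 in members. The gaps are partly fixed in advance, since the rule limited 6 of these genes in members and the reference nuclei were chosen for high counts of them or of other genes of the lists. Without the genes that chose either set, the sums were 278 and 4393 CPM for 8 immune markers, 254 and 3172 CPM for 5 mesothelial markers, 149 and 1590 CPM for 7 oviduct secretory markers, 142 and 11245 CPM for 6 adipocyte markers, 66.9 and 2108 CPM for 5 endothelial markers, and 170 and 982 CPM for 5 fibroblast and stromal markers. The part of such RNA in the members' other values was not tested. Multiciliated markers summed to 266 CPM in members and 831 CPM in other nuclei, and smooth muscle and pericyte markers to 42.8 and 79.2 CPM. Of 9 genes of the cell cycle and its arrest 0 passed 4-fold, and Mki67, a proliferation marker, was in 3.86% of members against 20.2% of immune nuclei.

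**Figure D4:**
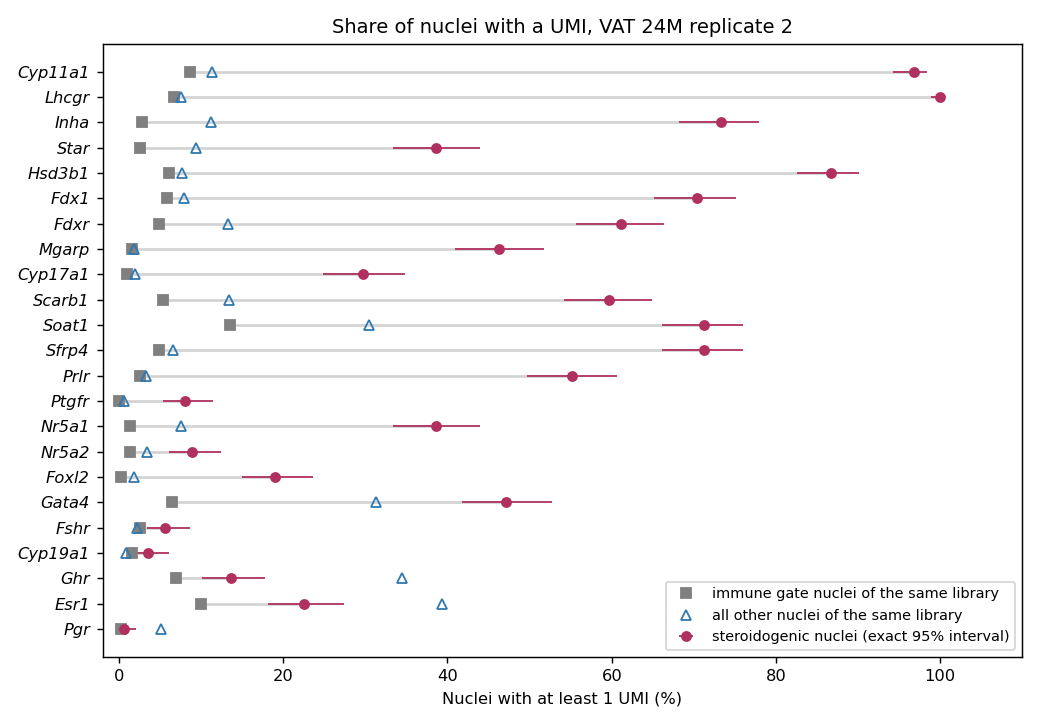
Share of nuclei with at least 1 UMI of each gene in VAT replicate 2, with members as red circles (bars are exact 95% binomial intervals), the 430 immune nuclei as grey squares and all 4733 other nuclei as open triangles. Cyp11a1 and Hsd3b1 are found in 96.7% and 86.6% of members, whereas Ghr, Esr1 and Pgr are found in a smaller share of members than of other nuclei.

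With each nucleus thinned to 1000 UMIs, which removed no nucleus since all held more, the shares of 5 genes stayed above those of immune nuclei. Hsd3b1 was then found in 76.0% of members and 3.95% of immune nuclei, Fdx1 in 61.4% and 3.72%, Sfrp4 in 62.3% and 3.26%, and Cyp17a1 in 22.0% and 0.698%. Foxl2 was found in 11.9% of members and in 0 immune nuclei.

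The 20 genes with the highest fold outside the rule, among those found in at least 20% of members, were led by Sfrp4. Sfrp4 (ENSMUSG00000021319, GRCm39 chr13:19807274-19817164) was at 2518 CPM in members and 60.9 CPM in other nuclei, a ratio of 41.3 (37.6 to 45.5). Gm6093, Hsd3b1, Mgarp and Fdx1 followed with log2 folds of 5.16, 4.96, 4.76 and 4.61. Metabolic enzymes in this group were Alas1, the first enzyme of heme synthesis (4.10), Acsbg1, which activates fatty acids (3.96), Adh1, an alcohol and retinol dehydrogenase (3.92), and Hao2, a hydroxy acid oxidase (3.74). Agt, the precursor of angiotensin, reached 3.92, and the transcription factor Tbx3 also reached 3.92. Frmd5, Prss35, Prlr, AU021092, Cyp17a1, Aff2, Pkdcc, Oca2 and Trib2 made up the rest, at 3.77 to 4.27.

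Among genes found in at least 20% of other nuclei, the 10 with the lowest fold were Ghr, Ighm, Alcam, Rtn1, Adgrl3, Dock10, Nkain2, Gpm6a, Arhgap45 and Cftr, at -3.20 to -2.64. Several of them marked another set of nuclei of the same library. Dock10 and Arhgap45 were at 1547 and 1715 CPM in immune nuclei, and Alcam was at 1746 CPM in oviduct secretory nuclei. The 5 genes with the largest share of their library UMIs inside the members, among genes with at least 50 UMIs there, were Cyp11a1 (82.8%), Lhcgr (80.1%), Nppc (79.1%), Gm6093 (77.0%) and Sfrp4 (76.6%). Nppc, the natriuretic peptide with which follicle cells hold oocytes in meiotic arrest, had 53 UMIs in 5.64% of members and none in immune nuclei.

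Co-detection described how the steps sat together in single nuclei. Cyp11a1 and Hsd3b1 were found together in 290 of 337 members (86.1%), and these with Fdx1 in 220 (65.3%). All 4 rule genes were found in 98 members. Cyp17a1 was found in 100 members and Cyp19a1 in 12, with both in 6. Fshr and Cyp17a1 were found together in 2. Nr5a1 or Nr5a2 was found in 147 members and both in 13. At a median of 1885 UMIs per nucleus, a gene without a UMI in a nucleus may have been missed.

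Members clustered again fell into 5 sub-groups, whose defining genes describe them and are no test. The number depended on the resolution, with 2 sub-groups at 0.3 and 9 at 1.0 against 5 at 0.5. At the lower resolution, 124 of 124 nuclei of sub-group 1 and 79 of 79 of sub-group 3 fell together, and 84 of 87 of sub-group 2 fell into the other set with all 18 of sub-group 5, while sub-group 4 was split, with 17 of its 29 nuclei beside sub-groups 1 and 3. At 1.0 sub-groups 4 and 5 each stayed in 1 set, but these sets of 46 and 33 nuclei held other members too. For the rest, the set with most of its nuclei held 31.5% of sub-group 1, 64.4% of sub-group 2 and 36.7% of sub-group 3.

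Sub-group 1 (124 nuclei) was led by Agt, Cyp17a1 and Gm6093. Cyp17a1 was at 1605 CPM there, found in 47.6% of its nuclei, and at 205 CPM over the other members. Fads1 and Fads2, which desaturate fatty acids, and Gstm1 and Gsta3, glutathione transferases, were also among its 10 leading genes. Against a background of 5.72% of 10181 genes at least 2-fold higher, 1 of 5 theca and interstitial markers and 0 of 11 granulosa markers with enough UMIs were.

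Sub-group 2 (87 nuclei) was led by Zfp385b and Nr5a2. Nr5a2 was at 539 CPM there, found in 29.9% of its nuclei, and at 7.09 CPM over the other members. Of 11 granulosa markers 9 were at least 2-fold higher (Fshr, Cyp19a1, Foxl2, Inhba, Hsd17b1, Nr5a2, Serpine2, Fst and Gja1), against 8.2% of all genes, as were 0 of 5 theca and interstitial and 0 of 6 luteal markers. Also at least 2-fold higher were 2 of 5 fibroblast and stromal markers, Col1a2 (7 UMIs) and Col3a1 (316 CPM, in 36.8% of these nuclei). Fshr was at 251 CPM against 0 to 32.2 CPM in the other sub-groups, and Cyp19a1 at 98.0 CPM against 0 to 10.6 CPM. Star was at 65.4 CPM, against 317 to 859 CPM elsewhere, while Hsd3b1 was at 2326 CPM, within the range of sub-groups 1 and 4. A UMI of Fshr was found in 14.9% of its nuclei, so that most of them had none.

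Sub-group 3 (79 nuclei) was led by Gpx3, Ecm1, Kcnd2 and Sfrp4. Gpx3 and Kcnd2 were each found in only 31.6% of its nuclei and Ecm1 in 22.8%. Kcnd2 was at 1384 CPM here and at a similar 1352 CPM in sub-group 5, in 83.3% of its nuclei. Sfrp4 was at 5430 CPM there, in 96.2% of nuclei (4.88% of immune nuclei), and at 1638 CPM over the other members. Ptgfr was at 167 CPM, and Ptgfr and Sfrp4 were the 2 of 6 luteal markers at least 2-fold higher, against 4.82% of all genes. Pmvk, Sqle, Cyp51 and Insig1 were the 4 of 18 cholesterol synthesis genes at least 2-fold higher. Cyp17a1 was at 121 CPM, below the 1605 CPM of sub-group 1.

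Sub-group 4 (29 nuclei) had a median depth of 1277 UMIs, the lowest of the 5, and was led by Gm10800 (5910 CPM against 617 CPM), Gm10801 and other predicted genes. At least 2-fold higher, against 14.4% of all genes, were 2 of 6 luteal markers (Ptgfr with 6 UMIs and Parm1 with 4) and 2 of 5 fibroblast and stromal markers (Fbn1 and Col1a2, with 2 UMIs each). The summed level of luteal markers was lower, at 4732 CPM against 5556 CPM over the other members.

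Sub-group 5 (18 nuclei) went against its label. Its rule-gene UMIs had a median of 4.5, against 20 to 47 in the other sub-groups, and its median mitochondrial share was 8.78%, against 3.64% to 6.44%. It was led by Upk1b (1111 CPM against 43.8 CPM), and 5 of 6 mesothelial markers with enough UMIs were at least 2-fold higher, against 16.7% of all genes. Prlr had 0 UMIs there and Wt1 was at 676 CPM. Cyp11a1 had 135 UMIs (2173 CPM) and was found in 55.6% of its nuclei, and the rule-gene UMIs of a nucleus ran from 4 to 117. Without these 18 nuclei, 319 members remained, with 242 genes at least 4-fold higher and 575 at least 4-fold lower. Gpm6a then changed from -2.65 to -5.02 and Wt1 from -2.09 to -2.80.

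**Figure D5:**
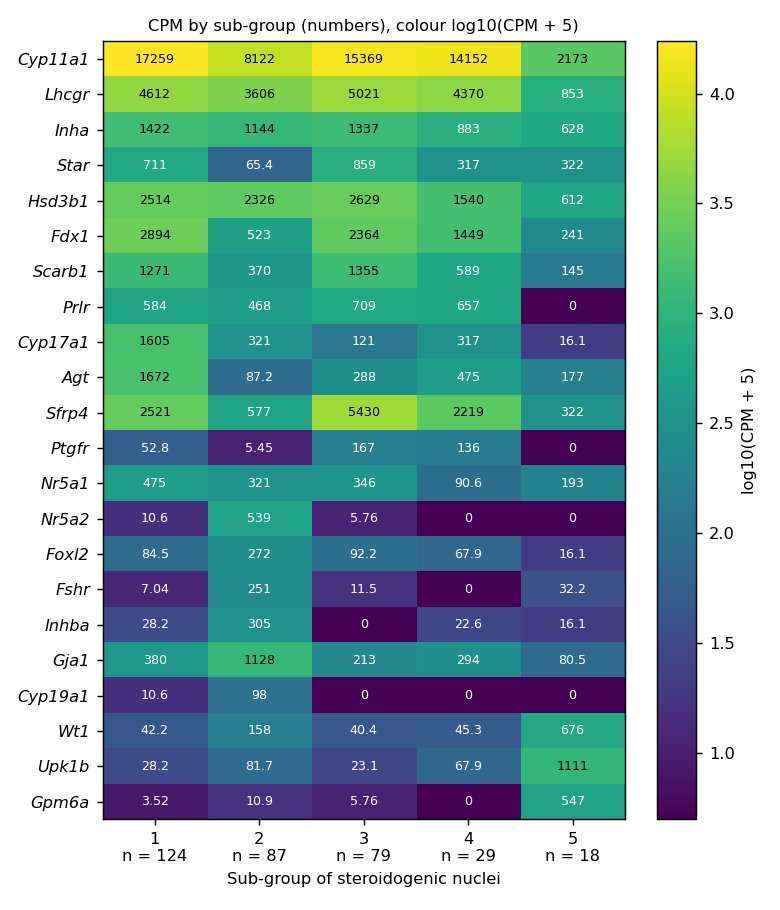
CPM of 22 genes in the 5 sub-groups of members, with the value printed in each field and the colour giving log10(CPM + 5). Cyp17a1 and Agt are highest in sub-group 1, Nr5a2, Fshr, Inhba and Cyp19a1 in sub-group 2, Sfrp4 in sub-group 3, and Wt1, Upk1b and Gpm6a in sub-group 5.

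Doublets, barcodes that hold more than 1 nucleus, could not be removed by a caller. Scrublet marked 3 of 5070 nuclei (0.0592%) and 0 members, too few to be taken as a working call. The deepest member held 12265 UMIs, in sub-group 5. Of the 254 nuclei with the highest 5% of Scrublet scores, 23 were members, spread over all 5 sub-groups with 2 to 8 nuclei each.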

How the data were processed

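The authors isolated nuclei of white fat, captured them on a Singleron microfluidic chip and aligned reads with Celescope to GRCm39, per the study's methods. The annotation release and the Celescope version are not given in the sources used here. What the authors deposited are whole-number UMI counts for each gene and barcode, not normalized, for 6 libraries and 56980 genes. Total depth per library ran from 8061862 to 16226690 UMIs. Positions came from GENCODE M39 (GRCm39), where all 284 genes looked up were found. Promoter windows came from RefSeq (GRCm38.p6), and no coordinate was converted.

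Counts were summed over the nuclei of each set and divided by the set's total (CPM). Folds were log2 of CPM + 5 for genes with at least 10 UMIs, and past the fold means 4-fold, or 2-fold between sub-groups. Intervals are 95%, exact binomial for shares and exact conditional for ratios, and floors use 3 counts. They cover counting error only. Reference sets needed at least 4 UMIs of their markers and at most 2 of other cells' markers. Members were clustered again on 1000 variable genes, 10 components and 15 neighbours (Leiden, resolution 0.5, seed 1). Leading genes of sub-groups were ranked with a prior of 50 CPM, and list genes needed enough UMIs in the members. The tools were scanpy 1.11.5, numpy 2.4.6 and pandas 2.3.3, with scipy 1.17.1 and matplotlib 3.10.9, under Python 3.11.15, and the fold step was tested on simulated data.

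Named genes are those of 23 gene lists, the 20 highest and 10 lowest folds among genes found in at least 20% of the nuclei of the higher set, and the 5 genes with the largest share of their UMIs in members. Members and lists were chosen with earlier results of these data known, and the 13 genes for promoters were chosen after their levels were seen. No test was made, since 1 library holds all members. Some genes of these lists are not reported here by name.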

Additional observations from a re-analysis of the deposited data

How the results depend on the processing

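The number of members in VAT replicate 2 was 337 (6.65%). It was 392 (7.73%) without the Lhcgr requirement, 212 (4.18%) with 0 UMIs of other cells' markers allowed, 163 (6.47%) with a mitochondrial limit of 5%, 595 (10.1%) without that limit, and 428 (4.12%) over every deposited barcode under the limit. Leaving out each VAT library in turn gave 0 to 337 members and a share of 0% to 6.65%, with 0 when replicate 2 was left out. Against 230 genes higher and 413 lower, a 2-fold limit gave 858 and 2576 and an 8-fold limit 62 and 29. The number of lower genes was 260 without the Lhcgr requirement and 865 with a mitochondrial limit of 5%. Higher genes numbered 445 against mesothelial nuclei, 657 against immune nuclei (1019 lower) and 467 against oviduct secretory nuclei (932 lower). Scaled by the median ratio they were 241 higher and 369 lower. Leaving out the top 5% of Scrublet scores, the smallest sub-group, or using 0.3 and 1.0 as resolution (2 and 9 sub-groups in place of 5), the immune nuclei without a limit on rule genes and the marker sums without the genes that chose the nuclei were added after seeing the data. No gene past 4-fold changed sign under the settings that recomputed single genes, but 49 of 98 fell short of 4-fold under at least 1, with 32 at a pseudocount of 20 CPM, 27 with both VAT libraries pooled and 23 without the Lhcgr requirement. Among them were Hsd17b7 (lowest log2 fold 1.29), Hsd17b1 (1.48), Akr1c14 (1.52), Nr4a1 (1.54), Nr5a2 (1.77), Inhba (1.77), Wt1 (-1.16), Lhx9 (-1.13), Emx2 (-1.18) and Sox9 (-1.33), where for the last 4 the value nearest 0 is given. Genes over 4-fold higher thus numbered 2 to 7 for enzymes after pregnenolone, 1 to 10 for cholesterol synthesis, 2 to 7 for granulosa and 3 to 6 for luteal markers, and 5 throughout for side-chain cleavage with its 2 rule genes. Genes over 4-fold lower numbered 0 to 2 for enzymes after pregnenolone, 0 to 5 for gonadal transcription factors, 1 to 4 for hormone receptors, 1 to 8 for immune, 1 to 7 for mesothelial, 1 to 7 for adipocyte and 1 to 8 for oviduct secretory markers. Of 23 list medians, 7 with main values of -0.30 to 0.22 took both signs over the settings. Pooling both VAT libraries moved 146 of 269 gene folds and 8 of 23 list medians beyond their counting interval. No paired analysis was possible because the members are in 1 library and no test was made. Depth limits what a missing UMI says of a nucleus, at a median of 1885 UMIs. The causes were not tested.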

Other observations

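Some other metabolic genes, chosen because their values were seen to be high, are given for the steroidogenic nuclei of VAT replicate 2. Me1, which makes NADPH for synthesis, was at 1184 CPM in members and 99.7 CPM in other nuclei, with a UMI in 73.6% of members and 3.26% of immune nuclei. Elovl6, which lengthens fatty acids, was at 246 and 25.4 CPM, a log2 fold of 3.05. With both VAT libraries pooled it was 1.96, and over all nuclei Elovl6 was at 89.9 CPM in VAT replicate 1, which held no members, against 41.6 CPM in VAT replicate 2. The desaturases Fads1 and Fads2 were at 223 and 29.1 CPM and at 397 and 47.5 CPM. The glutathione transferases Gsta3 and Gstm1 were at 317 and 40.3 CPM and at 1461 and 239 CPM (for Gstm1 a log2 fold of 2.58, and 1.98 with 0 UMIs of other cells' markers allowed), whereas Mgst1, a microsomal relative, was at 226 and 148 CPM. Such transferases belong to gene families whose copies can share reads.

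The following genes, 3 amino acid transporters among them, were likewise chosen after their values were seen. Slc7a5, a carrier of large neutral amino acids, was at 500.4 CPM in members and 33.7 CPM in other nuclei. Its relative Slc7a8 was at 289 and 26.4 CPM, and the cystine carrier Slc7a11 was at 462 and 42.6 CPM. Gclc, which starts glutathione synthesis from cysteine, was at 217 and 86.9 CPM, a log2 fold of 1.27. Hspd1, a mitochondrial chaperone, was at 429.5 and 53.5 CPM. Serpina5, a protease inhibitor, was at 165 and 4.02 CPM, with 76.4% of its library UMIs in members. Akr1cl, an aldo-keto reductase, was at 3530 CPM in members and was found in 90.8% of them against 8.84% of immune nuclei, but it was also at 590 CPM in mesothelial and 644 CPM in stromal nuclei of the same library. These values come from 1 library and carry no test.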
